A study of Rattus norvegicus with 6 samples.

Results

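Ionotropic glutamate receptors are ligand-gated cation channels, and the genes for 10 of their subunits were followed in INS-1 lines with and without the imprinted genes of the Prader-Willi syndrome (PWS) domain. The genes were taken by name: Gria1, Gria2, Gria3 and Gria4 of the AMPA receptors, Grik1, Grik2, Grik3 and Grik5 of the kainate receptors, and Grin1 and Grin2d of the NMDA receptors. They are 10 of the 32900 features in the table of gene counts, each with 1 row. INS-1 is a rat insulinoma cell line that secretes insulin. All 6 lines derive from INS-1(832/13)::mCherry cells, which also carry a human INS-neoR and a mouse Ins2-C-mCherry transgene. The 3 control lines (5-9, 2 and 16) lack the PWS domain on the silent maternal allele, and the 3 PWS lines (3, 19-1 and 19-4) lack it on both alleles. Every line is a clone, lines 2, 16, 3 and 19 came from line 5-9, of which only 3 and 19 were edited again, and line 3 has a larger deletion than planned. Because 19-1 and 19-4 were both subcloned from line 19, the PWS group stands for 2 clones. Total RNA of cells grown in 7.5 mM glucose was depleted of rRNA and sequenced, with 1 library per line, and whether separate cultures would differ as much was not analysed here. P-values therefore measure the spread between these clones.

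Each receptor is an assembly of several subunits around a pore. AMPA receptors carry most fast excitatory transmission in the brain, NMDA receptors need a co-agonist besides glutamate and pass calcium, and kainate receptors act on both sides of the synapse and tune transmitter release. Pancreatic islet cells and insulinoma lines are known to contain such receptors, and glutamate can influence hormone release there. Grik5 encodes GluK5, a subunit that reaches the membrane only together with GluK1, GluK2 or GluK3, the products of Grik1, Grik2 and Grik3.

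Values are normalized counts, that is, reads per gene divided by the size factor of the library. The libraries held between 26016478 and 36084261 counted reads, with reads that align to several places counted at each. The reads behind each value were recovered, and 94.1% to 100% of the reads of each subunit were still counted when reads shared with other places or genes were left out. The limit of detection was set at 3 reads, which is 2.73 to 3.59 normalized counts depending on the line, and it covers counting error only. Snurf, a gene of the deleted domain, was at 3688 ± 459 (SD, n = 3) with the paternal allele present and at 1.89 ± 1.82 (SD, n = 3) in the PWS lines, which had 6 reads of it together. All 12 markers of β-cells had more than 3 reads in some line. Their summed level was 542373 to 632068 normalized counts in control lines and 303144 to 524020 in PWS lines, without overlap, and its part in the results was not tested. Of 5 neuronal markers 4 were detected above 3 reads, with sums of 1281 to 2025 in control and 1016 to 1821 in PWS lines, while Neurod6 had no read. Sst, Irx2, Aldh1l1, Dcn and Ptprc, markers of δ-cells, α-cells, astrocytes, fibroblasts and leukocytes, had no read in any line. Other markers on these lists did have reads, namely Hhex of δ-cells, with 15 reads in PWS line 19-4, and Cd68 of leukocytes, with 182 reads over the 6 lines. The summed level of the δ-cell list was 0.918 to 2.85 normalized counts in control and 1.20 to 13.6 in PWS lines, and that of the leukocyte list 28.5 to 34.0 and 27.6 to 30.0. The summed level of 4 α-cell markers was 1.84 to 23.7 normalized counts in control lines and 18.4 to 112 in PWS lines. Its high end rests mainly on Gcg in PWS line 19-4, with 100 normalized counts, against 15.3 and 13.2 in PWS lines 3 and 19-1. Control lines 5-9, 2 and 16 had 19.0, 0 and 13.4 of Gcg. In such bulk libraries, fewer cells with a transcript and less of it per cell cannot be told apart.

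Promoter windows from RefSeq (assembly GRCr8, from 250 bases before to 50 bases after the gene start) were found for 7 of the 10 subunits. Those of Grik2, Grik3 and Grik5 are shown because these 3 genes carry the differences described next. Each is written 5′ to 3′ on the strand of the gene, and capitals mark GGGCGG or its reverse complement. In the count table these genes are ENSRNOG00000000368, ENSRNOG00000008992 and ENSRNOG00000020310. The window of Grik2 lies at chr20:54415234-54415533 (minus strand), that of Grik3 at chr5:143052192-143052491 (plus strand) and that of Grik5 at chr1:89794860-89795159 (minus strand).
Grik2: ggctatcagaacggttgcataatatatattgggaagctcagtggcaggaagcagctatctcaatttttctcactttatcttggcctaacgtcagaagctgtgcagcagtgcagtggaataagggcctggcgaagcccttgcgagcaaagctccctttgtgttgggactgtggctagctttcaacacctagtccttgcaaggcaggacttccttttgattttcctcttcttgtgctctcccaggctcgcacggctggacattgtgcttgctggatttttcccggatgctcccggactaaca
Grik3: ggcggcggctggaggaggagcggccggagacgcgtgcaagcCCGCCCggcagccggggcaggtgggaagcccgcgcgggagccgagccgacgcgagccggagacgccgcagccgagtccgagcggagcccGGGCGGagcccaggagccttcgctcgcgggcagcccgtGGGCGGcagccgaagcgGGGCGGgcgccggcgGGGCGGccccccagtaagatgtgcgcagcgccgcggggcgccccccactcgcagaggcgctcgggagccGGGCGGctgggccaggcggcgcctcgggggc
Grik5: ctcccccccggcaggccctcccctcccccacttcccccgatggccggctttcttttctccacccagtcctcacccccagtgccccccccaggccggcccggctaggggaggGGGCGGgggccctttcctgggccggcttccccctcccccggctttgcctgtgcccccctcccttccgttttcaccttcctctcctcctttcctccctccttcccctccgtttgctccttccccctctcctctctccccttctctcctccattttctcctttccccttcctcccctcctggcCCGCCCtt

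The 3 windows differ in base composition. That of Grik3 was 82.3% G and C, with 49 CpG dinucleotides and 6 matches to GGGCGG on either strand. Among all 33469 windows of this length, 33.1% held GGGCGG and 0.866% had 49 or more CpG. The window of Grik5 was 69.0% G and C, with 11 CpG and 2 matches. The window of Grik2 was 50.3% G and C, with 8 CpG and no GGGCGG, near the medians over all windows (51.7% and 7 CpG). On either strand it held 1 CCAAT, which 37.5% of all windows hold, and 1 TGACG, which 21.2% hold; neither was in the windows of Grik3 and Grik5. TATAAA, present in 14.2% of all windows, was in none of the 7. These letters are a description of the reference, and no binding was measured.

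**Figure D1:**
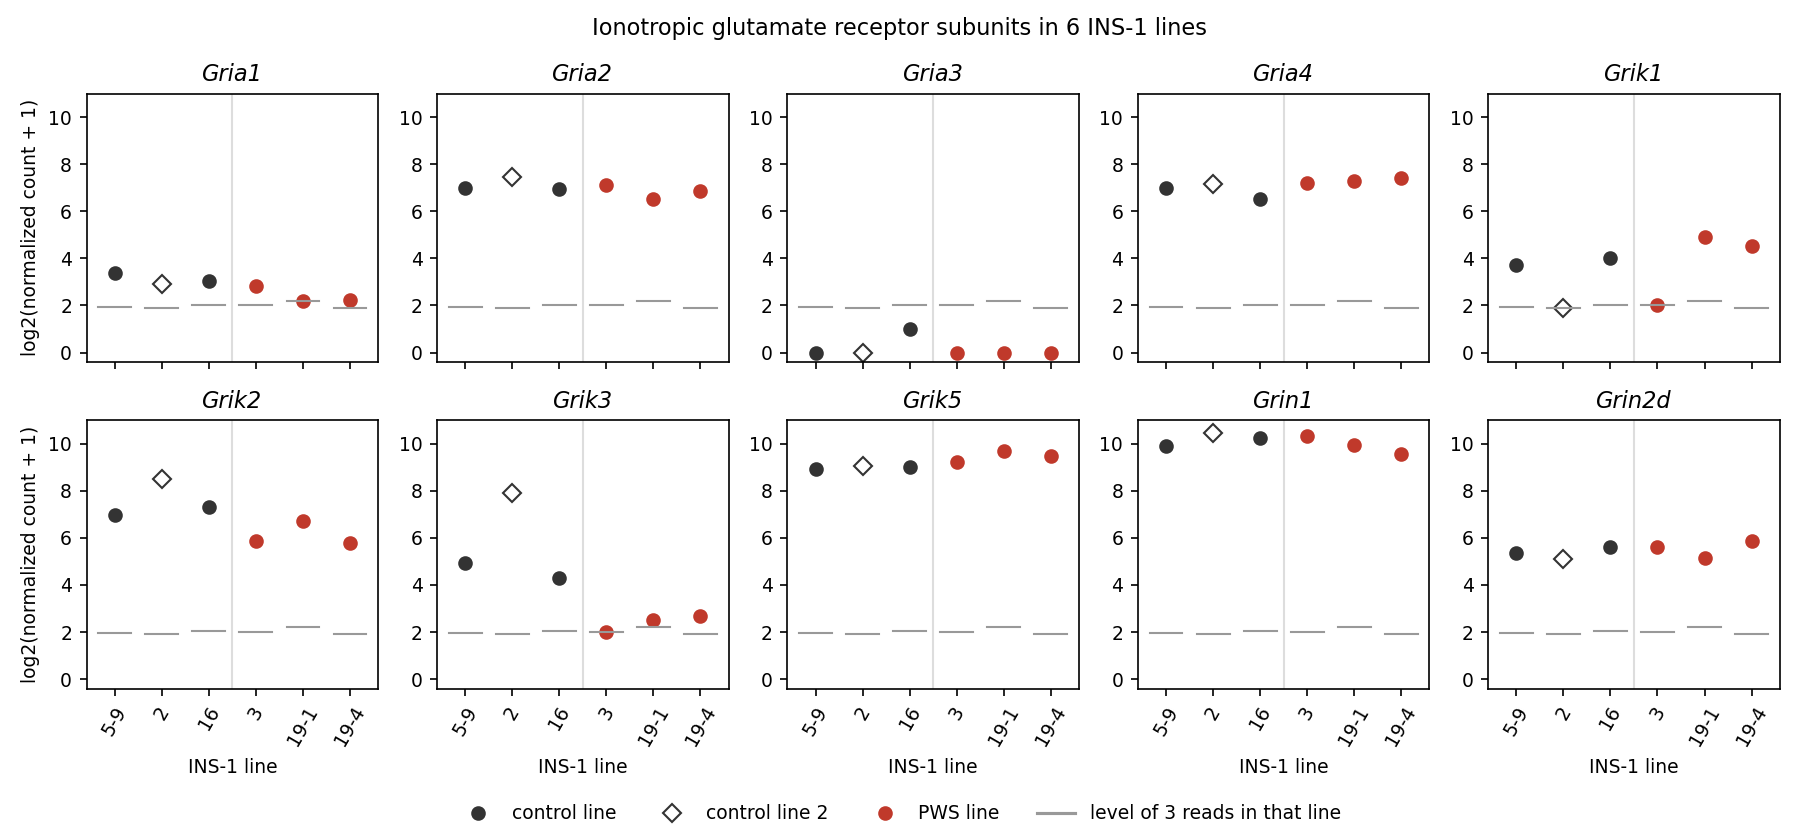
Level of each subunit gene in each line, as log2(normalized count + 1), with control lines in black, control line 2 as an open diamond and PWS lines in red. Grey ticks give the level of 3 reads in that line. Grik3 sits near the ticks in the 3 PWS lines and is highest in control line 2, and Gria3 lies below the ticks in all 6 lines.

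To ask whether receptor subunits differ with the loss of PWS-imprinted genes, the groups were compared with limma on log2(normalized count + 1) over the 15579 genes whose mean normalized count was 5 or more. Of the 10 subunits 9 reached that mean, and Gria3 did not. Gria1 and Grik3 reached it only through the control lines, as their PWS means were 4.45 and 4.43. At an adjusted p-value of 0.05 limma called none of the 9, as against 0.257% of all tested genes. Without adjustment 3 had a p-value under 0.05, namely Grik2, Grik3 and Grik5, as against 11.3% of all tested genes. DESeq2 on the recovered reads called the same 3 genes at an adjusted p-value of 0.05 (1.46% of all tested genes), and edgeR's quasi-likelihood test called none (0.205%). The groups did not overlap for 5 of the 9 (17.4% of all tested genes). Gria1, Grik2 and Grik3 were lower in every PWS line than in any control line (9.01% of all tested genes in that direction), and Gria4 and Grik5 were higher (8.43%). The median log2 fold change was -0.25 over the 9 subunits and -0.0028 over all tested genes.

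Grik3 encodes GluK3, a kainate subunit with low affinity for glutamate. It had 29.4 normalized counts in control line 5-9, 240 in control line 2 and 18.5 in control line 16, against 3.06, 4.78 and 5.46 in PWS lines 3, 19-1 and 19-4. All PWS lines lay below all control lines, and line 2 alone was 10-fold above the mean of the other control lines. The PWS values rest on 3, 4 and 6 reads, against 31, 261 and 18 in the control lines. The exact Poisson 95% interval of PWS line 19-4, 2.20 to 13.1 reads, met that of control line 16, 10.7 to 28.4 reads. On the log2 scale, PWS minus control was -3.29 ± 0.83 (SE; limma adjusted p = 0.277). Without control line 2 it was -2.19 ± 0.40 (SE; limma adjusted p = 0.215), and among the fits with 1 line left out it was largest, -4.004, without control line 16. With all 6 lines and a pseudocount of 5 it was -2.635.

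Grik2 encodes GluK2, which forms functional channels alone or together with GluK5. Control lines 5-9, 2 and 16 gave 123, 362 and 158, and PWS lines 3, 19-1 and 19-4 gave 57.2, 104 and 54.6 normalized counts. Line 2 was again highest, 2.57-fold above the mean of lines 5-9 and 16, and the gap between PWS line 19-1 and control line 5-9 was smaller than the spread within either group. Between 56 and 394 reads stood behind each value. On the log2 scale, PWS minus control was -1.47 ± 0.40 (SE; limma adjusted p = 0.284), and it ran from -1.78 without control line 5-9 to -1.01 without control line 2.

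Of the 4 detected neuronal markers, Rbfox3, Nefl and Slc17a7 were highest in control line 2 and Gap43 was not. Rbfox3, which encodes the neuronal splicing factor NeuN, had 95.5 normalized counts in line 2 and 21.4 to 52.6 in the other 5 lines. Nefl, a neurofilament gene, had 1663 in line 2 and 654 to 1108 in the others. Gap43, a growth cone gene, was at 124 in line 2, 124 in PWS line 19-1 and 674 in control line 5-9. The part of these in the values of Grik2 and Grik3 was not tested. Line 2 was the highest of the 6 lines for 4 of the 9 tested subunits (Gria2, Grik2, Grik3 and Grin1) and for 24.5% of all tested genes.

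Grik5, in contrast, was higher in PWS lines, and line 2 did not stand apart. Control lines 5-9, 2 and 16 gave 485, 525 and 516 normalized counts, with a mean of 509 ± 20.8 (SD, n = 3). In PWS lines 3, 19-1 and 19-4 it had 603, 823 and 717, with a mean of 714 ± 110 (SD, n = 3). The groups did not overlap, and the PWS lines spread more widely than the control lines. Each value rests on 502 to 789 reads. On the log2 scale, PWS minus control was 0.48 ± 0.12 (SE; limma adjusted p = 0.277), between 0.37 without PWS line 19-1 and 0.59 without PWS line 3, and 0.50 without control line 2.

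Grik1, the gene for GluK1, did not follow the groups. Control line 2 and PWS line 3 had only 3 reads each (2.75 and 3.06 normalized counts), at the limit of detection. Control lines 5-9 and 16 had 12.3 and 15.4 normalized counts, and the sister lines 19-1 and 19-4 had 28.7 and 21.8. The low line of each group thus lay below every other line of both groups. The log2 fold change of 0.58 ± 0.83 (SE; limma adjusted p = 0.837) had a 95% interval of -1.32 to 2.48, turned to -0.08 without control line 2 and was 1.47 without PWS line 3.

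**Figure D2:**
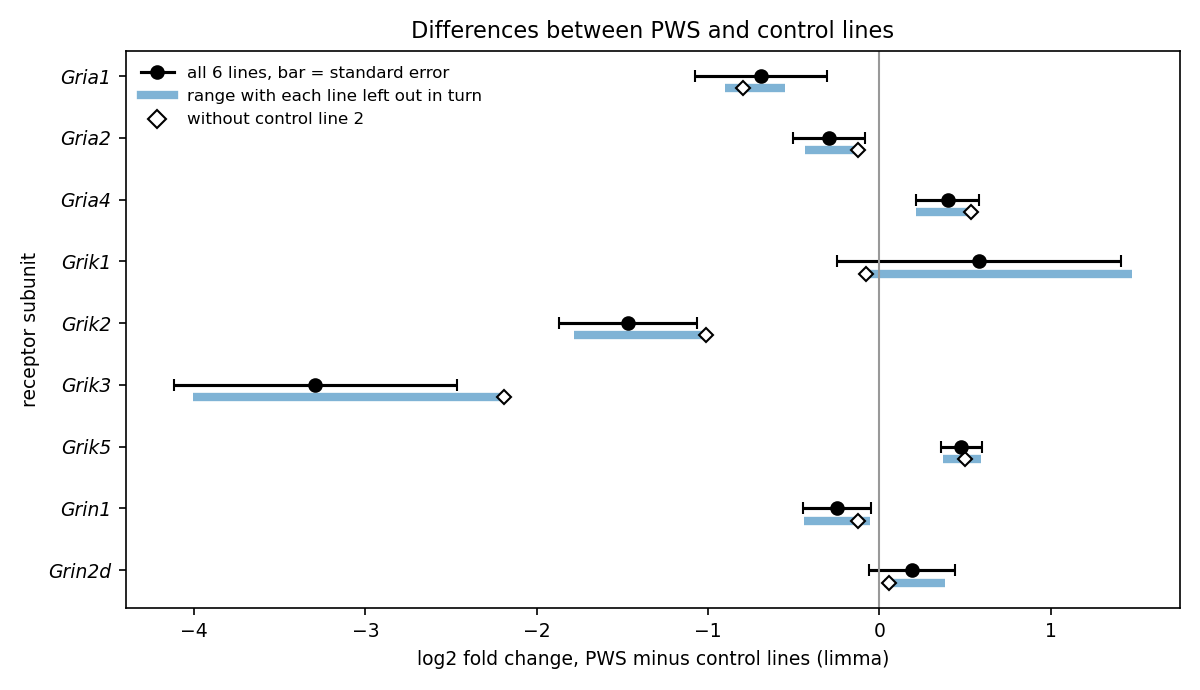
Log2 fold change (PWS minus control lines) of the 9 tested subunits in limma, with the standard error as a bar around each black point. Blue bands span the values with each line left out in turn and open diamonds are the values without control line 2, which move Grik3 from -3.29 to -2.19 and take Grik1 to the other side of 0.

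Ratios within a library do not depend on its scaling, so Grik2 was set against Grik5 in each line. The log2 ratio of their normalized counts was -1.97, -0.54 and -1.70 in control lines 5-9, 2 and 16, and -3.40, -2.98 and -3.72 in PWS lines 3, 19-1 and 19-4. Every PWS line was below every control line, also apart from line 2. The means were -1.41 ± 0.76 (SD, n = 3) and -3.37 ± 0.37 (SD, n = 3), a difference of -1.96, or -1.53 without line 2. Since neither gene overlapped between the groups and they differed in opposite directions, the ratio had to separate, and no test of it is given. A ratio of Grik3 to Grik5 was not formed, because PWS line 3 had no more than 3 reads of Grik3. Gene lengths in the counting annotation were not used here, so a ratio does not give the proportion of the 2 transcripts, only its change between lines.

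The same contrast was seen in the make-up of the kainate reads, a measure chosen after its values were seen and given without a test. It restates the differences above and adds no separate evidence. Grik5 was higher and Grik2 and Grik3 were lower in every PWS line, and Grik1 held at most 2.99% of these reads. Grik5 held 74.6%, 46.5% and 72.9% of the reads of the 4 kainate genes in control lines 5-9, 2 and 16. In PWS lines 3, 19-1 and 19-4 it held 90.5%, 85.7% and 89.8%. The Clopper-Pearson 95% interval was 83.1% to 88.0% for the lowest PWS line and 71.2% to 77.8% for the highest control line, and it covers counting error only, not the spread between clones. Grik3 took 21.2% of these reads in control line 2, 4.53% and 2.61% in lines 5-9 and 16, and 0.459% to 0.683% in PWS lines. The sum over the 4 genes overlapped between groups, with 650, 1129 and 708 normalized counts in the control lines and 667, 960 and 799 in the PWS lines.

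**Figure D3:**
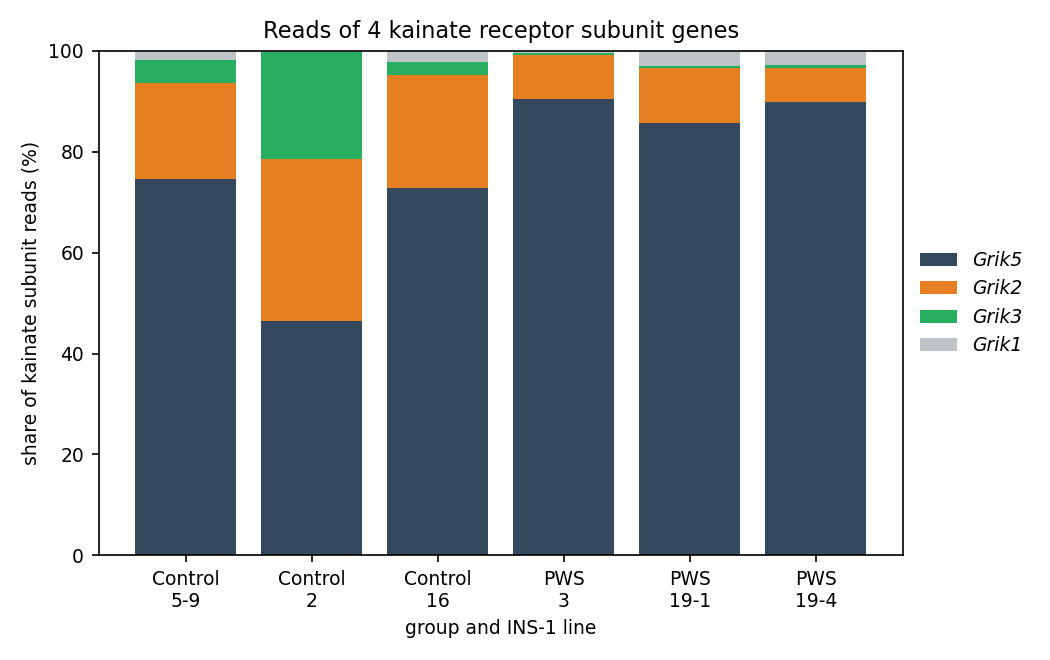
Share of the reads of Grik1, Grik2, Grik3 and Grik5 in each line, in percent of their sum, as stacked bars by group and line. The Grik5 part reaches 85.7% to 90.5% with the domain deleted on both alleles, and 46.5% to 74.6% among control lines.

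The calls made by DESeq2 changed with the lines included. With all 6 lines its adjusted p-values were 0.00872 for Grik2, 0.0211 for Grik3 and 0.0377 for Grik5. Without control line 2 none of the 3 passed, with adjusted p-values of 0.180, 0.0962 and 0.0858. The DESeq2 log2 fold change of Grik3 then went from -4.43 to -2.43 and that of Grik2 from -1.58 to -0.98, while that of Grik5 stayed near its value, 0.49 and 0.51. None passed without PWS line 19-4 either, where the DESeq2 log2 fold changes were -1.41 for Grik2, -4.61 for Grik3 and 0.49 for Grik5. Without any other line 1 or 2 of them passed. Over all genes DESeq2 made 228 calls with 6 lines, 135 without control line 2, 70 without PWS line 19-4 and 347 without PWS line 3.

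**Figure D4:**
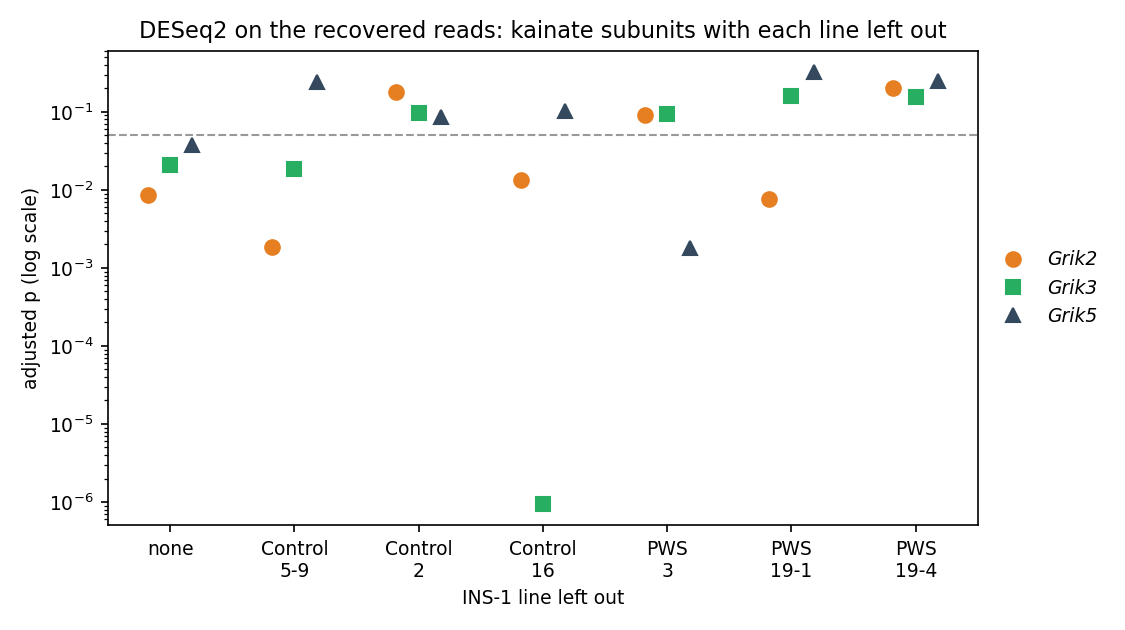
Adjusted p-value in DESeq2, on a log scale, for Grik2 (circles), Grik3 (squares) and Grik5 (triangles) with all 6 lines and with each line left out. The dashed line is 0.05, and all 3 genes lie above it without control line 2 and without PWS line 19-4.

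Among AMPA subunits, Gria2 and Gria4 were well detected, Gria1 was near the limit and Gria3 was not detected above it. Gria2 encodes GluA2, the subunit whose edited form makes AMPA receptors nearly impermeable to calcium. It measured 124, 174 and 121 in control lines 5-9, 2 and 16, and 138, 89.7 and 115 normalized counts in PWS lines 3, 19-1 and 19-4. The groups overlapped, and the log2 fold change of -0.29 ± 0.21 (SE; limma adjusted p = 0.644) had a 95% interval of -0.77 to 0.19 and was -0.12 without control line 2.

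Gria4, the gene for GluA4, measured 126, 143 and 91.4 in control lines 5-9, 2 and 16, and 147, 155 and 167 normalized counts in PWS lines 3, 19-1 and 19-4. The PWS lines lay above the control lines, but control line 2 and PWS line 3 differed little, by less than the spread within the control group. The log2 fold change was 0.40 ± 0.18 (SE; limma adjusted p = 0.461; 95% interval -0.02 to 0.82), 0.54 without control line 2 and 0.22 without control line 16.

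Gria1, the gene for GluA1, had 10, 7 and 7 reads in control lines 5-9, 2 and 16 and 6, 3 and 4 reads in PWS lines 3, 19-1 and 19-4. Although these values did not overlap after scaling, the exact Poisson 95% interval of the highest line, 4.80 to 18.4 reads, and that of the lowest, 0.619 to 8.77 reads, did. The log2 fold change of -0.69 ± 0.38 (SE; limma adjusted p = 0.541) is therefore not resolved at this depth. It was -0.80 without control line 2, -0.43 with a pseudocount of 5 and -0.36 with RSEM counting. For Gria3, the gene for GluA3, 1 read was counted in control line 16 and none in the other 5 lines, so that both groups were under the limit and no fold change is given.

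The log2 ratio of Gria2 to the sum of Gria1, Gria3 and Gria4 was -0.13, 0.22 and 0.28 in control lines 5-9, 2 and 16, and -0.15, -0.83 and -0.57 in PWS lines 3, 19-1 and 19-4. PWS line 3 lay just below control line 5-9, and the sister lines 19-1 and 19-4 lay lower. The difference of the means was -0.64 (exact permutation test, two-sided p = 0.1, the smallest that 3 lines against 3 allow; 0.2 adjusted over the 2 ratios tested), with the sister lines counted as separate. It was -0.59 without control line 2 (exact permutation test, p = 0.2, the smallest possible for 2 against 3). The sum of AMPA counts overlapped between the groups, with 221 to 324 normalized counts in control lines and 249 to 291 in PWS lines.

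NMDA subunits did not separate the groups. Grin1 encodes GluN1, the subunit that every NMDA receptor contains and that binds the co-agonist glycine. It measured 960, 1387 and 1208 in control lines 5-9, 2 and 16, and 1289, 989 and 756 normalized counts in PWS lines 3, 19-1 and 19-4. The ranges overlapped over most of their width, with a log2 fold change of -0.25 ± 0.20 (SE; limma adjusted p = 0.682; 95% interval -0.70 to 0.21). It was -0.44 without PWS line 3, -0.05 without PWS line 19-4 and -0.12 without control line 2.

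Grin2d encodes GluN2D, a glutamate-binding partner of GluN1. It measured 39.9, 33.0 and 48.3 in control lines 5-9, 2 and 16, and 48.0, 34.7 and 57.3 normalized counts in PWS lines 3, 19-1 and 19-4. Control line 2 was the lowest of all lines and the groups overlapped. The log2 fold change was 0.19 ± 0.25 (SE; limma adjusted p = 0.825), with a 95% interval of -0.39 to 0.77. It was 0.06 without control line 2, 0.03 without PWS line 19-4 and 0.38 without PWS line 19-1. The log2 ratio of Grin2d to Grin1 differed by 0.44 between the groups (exact permutation test, p = 0.6), by 0.18 without control line 2, by 0.08 without PWS line 19-4 and by 0.64 without PWS line 19-1.

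Most of the other ionotropic subunit genes followed had few or no reads. Grik4, the gene for GluK4, the close relative of GluK5, had 16 reads over the 6 lines. Grin2a had 19, Grin2b 2 and Grin3b 7, while Grin3a had none, and Grin2c had 41. Grid1 encodes a δ receptor subunit, a relative of the other ionotropic subunits that is not opened by glutamate alone. Its control mean was 123 ± 27.7 (SD, n = 3) normalized counts and the PWS mean 105 ± 9.83 (SD, n = 3), which gave -0.19 ± 0.20 (SE; limma adjusted p = 0.758) on the log2 scale. Leaving out control line 2 gave -0.07 and leaving out control line 5-9 gave -0.39. Of its reads 77.1% were left when shared reads were not counted.

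Genes that assemble, anchor or feed these receptors were followed in 6 lists, of which 53 genes were tested. At an adjusted p-value of 0.05, limma, edgeR and DESeq2 called none of them, while 9 higher and 3 lower genes had an unadjusted p-value under 0.05. Over all tested genes 11.3% had such a p-value. In 9 of the 53 the PWS lines were above all control lines (8.43% of all tested genes) and in 3 below them (9.01%). The median log2 fold change over the 53 was 0.10.

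Of 13 tested auxiliary subunit and biogenesis genes, 11 had a log2 fold change above 0, against 7678 of all 15579 tested genes, and the median was 0.16. Among the 11, Neto1, Cnih2, Shisa6 and Frrs1l fell below 0 in some fit with 1 line left out. The lowest was Neto2, which encodes an auxiliary subunit of kainate receptors. It measured 378, 358 and 318 in control lines 5-9, 2 and 16, and 298, 252 and 222 normalized counts in PWS lines 3, 19-1 and 19-4. The groups did not overlap, and the log2 fold change was -0.45 ± 0.14 (SE; limma adjusted p = 0.314). Its relative Neto1 had the highest value in limma, 0.59 ± 0.55 (SE), but 2 reads in control line 16 decided it, and without that line it was -0.01. Cacng4 encodes the transmembrane AMPA receptor regulatory protein γ-4. Its PWS mean of 140 ± 38.4 (SD, n = 3) normalized counts stood against 95.0 ± 8.93 (SD, n = 3) in the control group with no overlap, at a log2 fold change of 0.52 ± 0.20 (SE; limma adjusted p = 0.407). PWS line 19-4 was highest, with 184 normalized counts, and without it the value was 0.31. Cnih2, an AMPA receptor cornichon, differed by 0.04 ± 0.08 (SE), between -0.0090 and 0.10 with 1 line left out.

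Of 20 tested scaffold and anchoring genes, 13 had a log2 fold change above 0, against 7678 of all 15579 tested genes, and the median was 0.10. Shank1, a postsynaptic scaffold gene, had the highest log2 fold change, 0.61 ± 0.16 (SE; limma adjusted p = 0.277). Its control mean was 240 ± 50.9 (SD, n = 3) normalized counts and its PWS mean 363 ± 33.8 (SD, n = 3), without overlap. Nptx1, which encodes a secreted pentraxin that gathers AMPA receptors, had the lowest, -0.83 ± 0.34 (SE; limma adjusted p = 0.420). Control lines 5-9, 2 and 16 gave 201, 400 and 216, and PWS lines 3, 19-1 and 19-4 gave 195, 171 and 90.9 normalized counts. Control line 2 was highest, and PWS line 3 lay just under control line 5-9. The value was -0.52 without control line 2 and -0.50 without PWS line 19-4.

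Of 8 metabotropic receptor genes only Grm2 and Grm4 were tested. For Grm2, an inhibitory receptor gene, a control mean of 78.2 ± 19.2 (SD, n = 3) and a PWS mean of 108 ± 6.77 (SD, n = 3) normalized counts gave 0.49 ± 0.21 (SE; limma adjusted p = 0.432). Control line 2 was lowest, with 56.0 normalized counts, and without it the value was 0.27. Grm4 had -0.16 ± 0.49 (SE), between -0.69 and 0.12 with 1 line left out. Among 12 tested genes of glutamate supply and clearance, with a median of -0.03, the values ran from -0.39 ± 0.13 (SE; limma adjusted p = 0.343) for Slc7a11, the cystine/glutamate exchanger, to 0.49 ± 0.27 (SE) for Slc1a5, a neutral amino acid transporter. Of the 3 genes for RNA-editing adenosine deaminases, Adar had the lowest log2 fold change, -0.06 ± 0.07 (SE), or -0.01 without control line 2. Adarb1, which encodes the enzyme that edits the Gria2 transcript, had 0.16 ± 0.12 (SE), between 0.05 without PWS line 19-4 and 0.26 without control line 2. Adarb2, a relative without known editing activity, had the highest, 0.99 ± 0.40 (SE; limma adjusted p = 0.418), or 0.58 without control line 16, with overlapping groups and 75.3% of its reads left when shared reads were not counted.

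**Figure D5:**
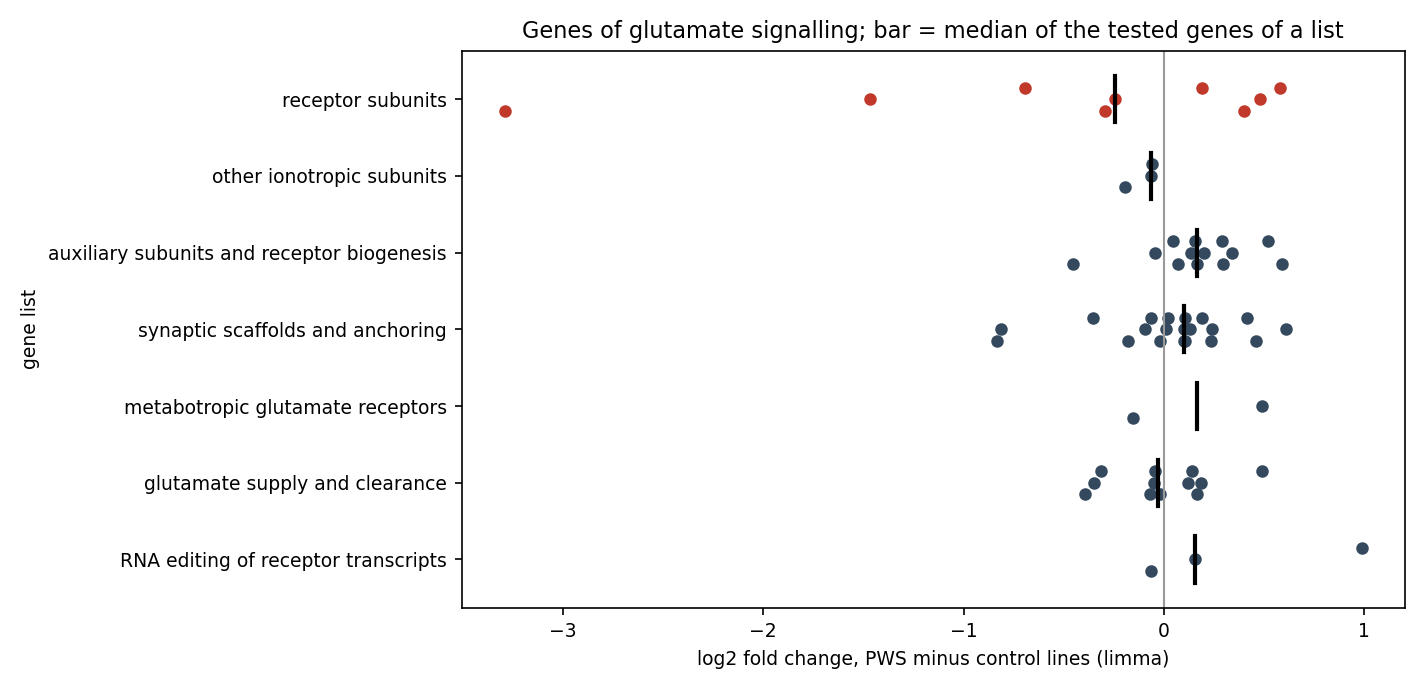
Log2 fold change (PWS minus control lines, limma) of the 9 tested receptor subunits (red) and of the tested genes in 6 lists of glutamate signalling (blue), with a black bar at the median of each. Grik3 (-3.29) and Grik2 (-1.47) lie outside the range of the listed genes, which runs from -0.83 for Nptx1 to 0.99 for Adarb2.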

How the data were processed

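Total RNA-seq of 6 INS-1 lines was used, with groups taken from the labels. Per the paper's methods, adapters were removed with cutadapt and alignment was by STAR (2.7.0e in the submitters' processing notes) to the Ensembl rat genome with transgenes added, and the authors counted genes with HTSeq 0.11.2 (nonunique all or nonunique none) or RSEM 1.3.1. The libraries were stranded. The deposited values are a signal: counts divided by DESeq2 size factors. The authors also deposited log2 fold changes, standard errors, test scores, p-values and adjusted p-values of their comparison, which were not used.

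The nonunique all table gave the values reported. Of the nonzero values made with HTSeq, 100% came out whole (tolerance 0.01) after division by their column's smallest value, which gave the reads; edgeR 4.0.16 and DESeq2 1.42.0 (no independent filtering) were run on them. The main test was limma 3.58.1 in R 4.3.3 (lmFit, eBayes with trend) across all genes with a mean of at least 5, on log2(normalized count + 1), a scale that understates changes of low genes. P-values were adjusted over all tested genes by the Benjamini-Hochberg procedure, with a threshold of 0.05. The limma, edgeR and DESeq2 fits were checked on simulated data. The members, gene lists and tests were chosen with earlier results of these data known. From the lists, the text names the genes at both ends of the fold changes and those without overlap at a log2 fold change of 0.5 or more; Cnih2, Adarb1, Grik4, Grin2a, Grin2b, Grin2c, Grin3a and Grin3b were added afterwards. One gene named by this rule is not reported here. Of 72 listed genes 70 were matched by symbol. Alternatives changed 1 choice at a time (pseudocount, filter, scaling, test, counting, lines, block), except DESeq2 with each line left out, which changed the test and the lines. That and leaving out lines for the listed genes were chosen after seeing the data. Promoter windows were matched by symbol.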

Additional observations from a re-analysis of the deposited data

How the results depend on the processing

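None of the 9 tested subunits was called in limma with pseudocounts of 0.5 or 5, with all genes that had a read or with means of 50 and over, with TMM scaling, without trend, with nonunique none or RSEM counting, with lines 19-1 and 19-4 averaged, at a threshold of 0.1, or with any line left out, nor in edgeR. With means of 50 and over, Gria1, Grik1 and Grin2d were not in the fit, and Grik3 was in it only through control line 2, with 240 normalized counts. DESeq2 called 3 (Grik2, Grik3 and Grik5). With 1 line left out, an alternative chosen after seeing the data, DESeq2 called 2 without control line 5-9 or 16 (Grik2 and Grik3), 1 without PWS line 3 (Grik5), 1 without 19-1 (Grik2), and 0 without control line 2 or PWS line 19-4. With the replicate number as a block, limma called 1, Grik2 (adjusted p = 0.0451). The numbers do not pair the lines: deviations of same-numbered lines correlated across genes at 0.00345, 0.0467 and 0.00513, and line 5-9 correlated best with line 19-4. Over all tested genes limma called 40, against 9 with means of 50 and over, 16 with nonunique none counting, 12 with RSEM and 228 in DESeq2 (70 to 347 with 1 line left out). Among the 9 tested subunits directions held in all alternatives run, except that the log2 fold change of Grik1 ran from -0.0781 (without control line 2) to 1.475 (without PWS line 3). Some listed genes, such as Neto1, Cnih2 and Grm4, changed direction with 1 line left out. Depth limits Gria1, Gria3, Grik1 and the PWS values of Grik3, which rest on 24 reads or fewer per line.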
